A study of Mus musculus with 24 samples.

Results

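The livers of 12 male mice were compared, 6 lacking the constitutive androstane receptor (CAR-/- males) and 6 wild type (WT males), out of 24 mice in the series; the other 12 were females of the same genotypes. Members were chosen by the sex and genotype that the labels give to each sample. All mice were 16 weeks old, carried a C57BL/6J background, ate a standard diet and were killed in the fed state during the dark phase, and each array held the liver RNA of 1 mouse. CAR-/- mice had been backcrossed to C57BL/6J and were provided by another laboratory, whereas the labels describe C57BL/6J mice bought from a breeder at 8 weeks. Littermates were not described, so the genotype and the colony of origin cannot be told apart.

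CAR, encoded by Nr1i3, is a nuclear receptor of hepatocytes that pairs with the retinoid X receptor and switches on genes for drug, steroid and bilirubin clearance. Its classical targets are cytochrome P450 enzymes of the Cyp2b and Cyp2c families, conjugating enzymes and export pumps. CAR is also known to take part in hepatic lipid and glucose handling.

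RNA was measured on 1-color Agilent arrays. The deposited table holds normalized log2 signals of 31343 probes for 22170 genes, counting transcripts without a symbol as genes, and between 27655 and 30150 of these probes were well above background on a male array. Calling a gene required a probe of it with a change of more than 1.5-fold between CAR-/- and WT males and a Benjamini-Hochberg adjusted p below 0.05 (limma). All changes below are CAR-/- minus WT on the log2 scale, given with the standard error of the fit. Levels are log2 signals of a given probe and are not compared between genes. Defining hepatocyte transcripts were abundant and alike in both groups, with albumin (Alb) at 18.66 in WT and 18.66 in CAR-/- males. On the first principal component of the genes outside the Nr1i3 region, which held 25.5% of the variance, the WT males lay between -24.75 and -11.23 and the CAR-/- males between -5.91 and 35.82. CAR-/- male 5 lay nearest to the WT mice, and CAR-/- males 2, 3 and 4 farthest from them. WT male 5 stood apart on the second component, at 48.29 against at most 15.33 for the others. It had the fewest probes above background, and its slide held WT arrays only and was scanned in another session. A marker of skeletal muscle, Tnni2, read 10.82 in WT male 6 and at most 6.28 in the other WT males, and the acinar pancreas transcript Ctrb1 read 9.23 in CAR-/- male 6 and at most 7.91 in the other CAR-/- males.

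The knocked-out gene itself was lower. Nr1i3 was read by a pair of probes, whose central 30 bases are shown to identify the transcript stretches that were measured, in lower case throughout.
Nr1i3 probe at chr1:173147776-173147835 (mm9, plus strand): tcagctacaagaggagatggcgctgattct
Nr1i3 probe at chr1:173148765-173148824 (mm9, plus strand): ctcctatgaacttcagcgcttggaggaact
At the first probe the WT males ran from 10.48 through a median of 10.72 to 11.05, and the CAR-/- males from 8.45 through 8.62 to 8.68. At the second, the WT males ran from 11.74 through 11.97 to 12.42 and the CAR-/- males from 9.75 through 9.95 to 10.05. The groups did not overlap at either probe. The falls were -2.17 ± 0.13 (adjusted p = 7.21e-11, limma) and -2.12 ± 0.15 (adjusted p = 1.23e-09, limma), equal to 4.50-fold and 4.34-fold. Both probes remained well above background on all 6 CAR-/- arrays. Whether either lies within the deleted part of the gene is not given in the sources used here, so the residual signal does not measure leftover receptor.

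Genes around Nr1i3 were kept apart from the rest of the genome, since DNA that flanks a targeted locus travels with it during backcrossing. The window reached from -10.15 to 7.85 Mb around Nr1i3 on chromosome 1 (mm9) and held 192 measured genes. Of these, 13 were called higher in CAR-/- males (6.77%) and 20 lower (10.4%). Outside the window 21978 genes were measured, with 122 called higher (0.555%) and 72 lower (0.328%). Over all genes, the shares were 0.609% higher and 0.415% lower. The counts outside the window leaned on single mice: without CAR-/- male 5 they were 205 and 145, without CAR-/- male 2 they were 68 and 37, without CAR-/- male 3 they were 78 and 37, without CAR-/- male 4 they were 80 and 39, and without WT male 1 they were 103 and 42. All 33 window calls showed CAR-/- and WT males that did not overlap, as did 56 of the 122 higher and 32 of the 72 lower calls outside it. Over all genes, 1.94% had every CAR-/- male above every WT male and 1.21% had every CAR-/- male below. By distance from Nr1i3, 30.2% of the 43 genes lying 2 to 5 Mb away were called, 26.9% of the 26 genes 1 to 2 Mb away and 16.3% of the 49 genes within 1 Mb. Farther out, 2.70% of the 111 genes 5 to 10 Mb away and 4.26% of the 141 genes 10 to 20 Mb away were called. At 20 to 50 Mb 1.29% of 232 genes were called, and at 50 to 200 Mb 1.87% of 694. On the other chromosomes 0.824% were called. The median size of change was 0.197 within 1 Mb and 0.102 on other chromosomes.

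**Figure D1:**
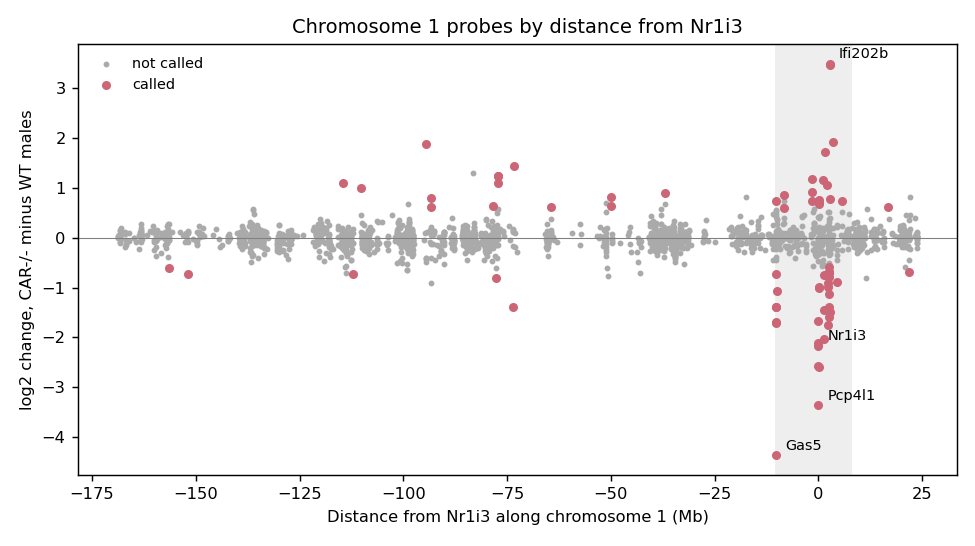
Each point is a chromosome 1 probe, with its distance from Nr1i3 in Mb on the x axis and its log2 change in CAR-/- minus WT males on the y axis; called probes are red and the window from -10.15 to 7.85 Mb is shaded. Called probes crowd around Nr1i3 in both directions, and Gas5, at -4.36, lies at the lower edge of the window.

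Within the window, the strongest rise was in the interferon-inducible gene Ifi202b. It was not well above background on any WT male array, and its signals ran from 4.48 to 4.92 in WT and from 7.57 to 8.42 in CAR-/- males. This made it at least 9.35-fold higher (adjusted p = 2.35e-16, limma). Other members of the same gene cluster moved in opposite directions: Ifi203 rose by 0.77 ± 0.12, whereas Pydc3 fell by 1.38 on the log2 scale and Mnda by 1.49. Fmn2, a formin that nucleates actin, rose by 1.92 ± 0.24. Apcs, the serum amyloid P-component secreted by hepatocytes, rose by 1.71 ± 0.31, from 10.27 to 11.87 in WT to 12.46 to 13.27 in CAR-/- males. The signaling regulators Rgs5 and Rgs4 rose by 1.18 ± 0.18 and 0.92 ± 0.12, the potassium channel Kcnj10 by 1.17 ± 0.19 and the chemokine receptor Darc by 1.06 ± 0.13. Fmo1, a flavin monooxygenase that oxidizes drugs, rose by 0.86 ± 0.11, and the junction protein F11r by 0.75 ± 0.06.

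Among the window genes that fell, Pcp4l1 dropped from 8.33 to 9.36 in WT to 5.27 to 5.78 in CAR-/- males, a change of -3.36 ± 0.22 (adjusted p = 1.33e-10, limma). The phosphatase Dusp23 changed by -2.02 ± 0.11, 1700009P17Rik by -2.58 ± 0.17, the centromere protein gene Cenpl by -1.68 ± 0.10 and the actin-binding Tagln2 by -1.46 ± 0.15. Gm4955 was not well above background on any CAR-/- array and was at least 3.31-fold lower. Prdx6, an antioxidant peroxiredoxin, changed by -1.08 ± 0.10. B4galt3, a Golgi galactosyltransferase, was read by neighboring probes that disagreed in size, at -2.58 ± 0.08 (adjusted p = 1.07e-17, limma) and -0.33 ± 0.12 (adjusted p = 0.147, limma). Their central 30 bases show the stretches behind this disagreement.
B4galt3 probe that fell, chr1:173206967-173207026 (mm9, plus strand): gggctgggattttgatatcttttctaataa
B4galt3 probe that did not pass, chr1:173206868-173206927 (mm9, plus strand): ttcctaagaagctgtctggtggaggaaacc
The files hold no genotype at these bases, so a lower RNA level and a poorer match of 1 probe to the transcript cannot be told apart here.

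The largest fall outside the window sat 0.031 Mb beyond its edge. Gas5, a noncoding host of small nucleolar RNAs, changed by -4.36 ± 0.10 at its strongest probe (adjusted p = 6.17e-20, limma), a 20.6-fold fall from 11.57 to 12.04 in WT to 7.13 to 7.53 in CAR-/- males. Its other probes changed by -1.38 ± 0.16 and -0.04 ± 0.12, the last with an adjusted p of 0.888 (limma). Whether the 3 probes read the same transcript could not be looked up, and the files hold no genotype at their bases. As for B4galt3, a lower RNA level and a poorer match of a probe cannot be told apart here. The 3 probes are printed whole, in order along the gene, because they gave 3 different answers for 1 gene name.
Gas5 probe at -1.38, chr1:162966369-162966428 (mm9, plus strand): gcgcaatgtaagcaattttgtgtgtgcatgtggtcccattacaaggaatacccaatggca
Gas5 probe at -0.04, chr1:162967350-162967409 (mm9, plus strand): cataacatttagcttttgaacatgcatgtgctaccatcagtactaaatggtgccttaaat
Gas5 probe at -4.36, chr1:162968608-162968667 (mm9, plus strand): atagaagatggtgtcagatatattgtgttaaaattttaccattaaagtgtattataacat
With the window widened by 3 Mb on each side, an alternative chosen after seeing the data, 121 genes outside it were called higher and 69 lower.

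Among the drug-metabolizing P450 families that CAR is known to regulate, 6 of 12 measured Cyp2c genes fell. The other Cyp2c genes, Cyp2c44, Cyp2c55, Cyp2c66, Cyp2c67, Cyp2c68 and Cyp2c70, gave -0.26, -0.19, -0.08, -0.52, -0.45 and -0.56 and did not pass. Of 22 measured Cyp2b, Cyp2c and Cyp3a genes, 6 were called lower and 3 higher, or 27.3% and 13.6% against the 0.415% and 0.609% of all genes, with Cyp2c38 counted on both sides. Leaving out 1 male at a time gave 6 to 7 lower and 0 (without CAR-/- male 4) to 5 (without CAR-/- male 5) higher. The median change of the list was -0.14, against -0.005 over the genes outside the window. This list, like all gene lists here, was drawn up with earlier results of these data known. Its shares are therefore no independent evidence. The Cyp2c genes lie on chromosome 19, and the first 250 bases upstream of 3 of them are given from RefSeq (GRCm38.p6) because they are the sequences nearest the starts of genes that fell. Capitals mark the nuclear receptor hexamers AGGTCA and AGTTCA on either strand (TGACCT and TGAACT on the other).
Cyp2c29, chr19:39286835-39287084, plus strand: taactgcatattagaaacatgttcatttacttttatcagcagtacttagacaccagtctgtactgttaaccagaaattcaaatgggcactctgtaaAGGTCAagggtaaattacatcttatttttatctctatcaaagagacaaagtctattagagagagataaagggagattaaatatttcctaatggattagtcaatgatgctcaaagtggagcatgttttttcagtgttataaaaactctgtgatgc
Cyp2c37, chr19:39992174-39992423, plus strand: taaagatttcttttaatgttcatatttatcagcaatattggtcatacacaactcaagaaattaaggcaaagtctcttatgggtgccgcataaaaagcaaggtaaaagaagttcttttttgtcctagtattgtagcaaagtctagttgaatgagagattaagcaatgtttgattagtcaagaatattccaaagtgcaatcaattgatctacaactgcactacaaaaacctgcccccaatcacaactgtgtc
Cyp2c50, chr19:40089429-40089678, plus strand: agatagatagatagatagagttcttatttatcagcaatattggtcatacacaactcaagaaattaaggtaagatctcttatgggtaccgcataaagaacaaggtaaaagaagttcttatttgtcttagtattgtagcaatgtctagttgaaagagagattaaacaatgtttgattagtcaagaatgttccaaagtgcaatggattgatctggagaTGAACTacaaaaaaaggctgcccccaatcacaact
A hexamer of this kind was in the promoters, 250 bases before to 50 after the start, of 26.1% of the measured genes with a RefSeq promoter and of 29.4% of the 119 called genes outside the window that had one. The direct repeat of these hexamers 4 bases apart was in none of either and in 0.0274% of all RefSeq promoters. A match is a description of letters, not a binding site.

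Cyp2c50 ran from 14.97 through 15.19 to 15.33 in WT males and from 13.07 through 13.26 to 13.40 in CAR-/- males, a change of -1.90 ± 0.18 (adjusted p = 4.2e-07, limma) or 3.74-fold. Cyp2c54 ran from 14.79 through 14.97 to 15.21 and from 13.00 through 13.18 to 13.42, a change of -1.81 ± 0.22. Cyp2c37 ran from 13.07 through 13.36 to 13.50 and from 11.42 through 11.51 to 11.76, a change of -1.77 ± 0.20. In these 3 enzymes, each CAR-/- male sat more than 1 log2 unit below each WT male. Cyp2c29, an abundant P450 used as a CAR target, changed by -0.93 ± 0.10 (adjusted p = 4.23e-06, limma), from 14.90 to 15.32 in WT to 13.77 to 14.51 in CAR-/- males. Cyp2c39, which hydroxylates retinoic acid, changed by -1.22 ± 0.18, and CAR-/- male 5 was its lowest at 8.86 against at least 9.48 in the others. Cyp2c transcripts are similar in sequence, so signal shared between paralogs cannot be told apart.

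Cyp2c38 was the only gene called in both directions. Its brighter probe ran from 13.13 to 13.58 in WT and from 9.02 to 11.47 in CAR-/- males, a change of -2.59 ± 0.25 (adjusted p = 4.33e-07, limma), with CAR-/- male 5 lowest at 9.02. Its dimmer probe averaged 5.39 in WT and 6.29 in CAR-/- males, a change of 0.91 ± 0.22 (adjusted p = 0.0238, limma). The central 30 bases of both are shown because they give opposite directions for 1 gene name.
Cyp2c38 probe that fell, chr19:39465415-39465474 (mm9, minus strand): ctgccaccccattaccagctctgcttcatt
Cyp2c38 probe that rose, chr19:39464438-39464497 (mm9, minus strand): caaatcttgctttacttagtctgtcaacta
The other called members were Cyp3a57 at 0.64 ± 0.13 and Cyp3a59 at 0.69 ± 0.16. Cyp2b10, the classical CAR target, was not called: the WT males lay between 4.83 and 5.45, CAR-/- males 2, 3 and 4 at 8.45, 8.56 and 6.77, and the other CAR-/- males between 4.70 and 5.68, giving 1.29 ± 0.47 (adjusted p = 0.14, limma). Cyp3a11 gave 0.39 ± 0.20 (adjusted p = 0.33, limma).

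**Figure D2:**
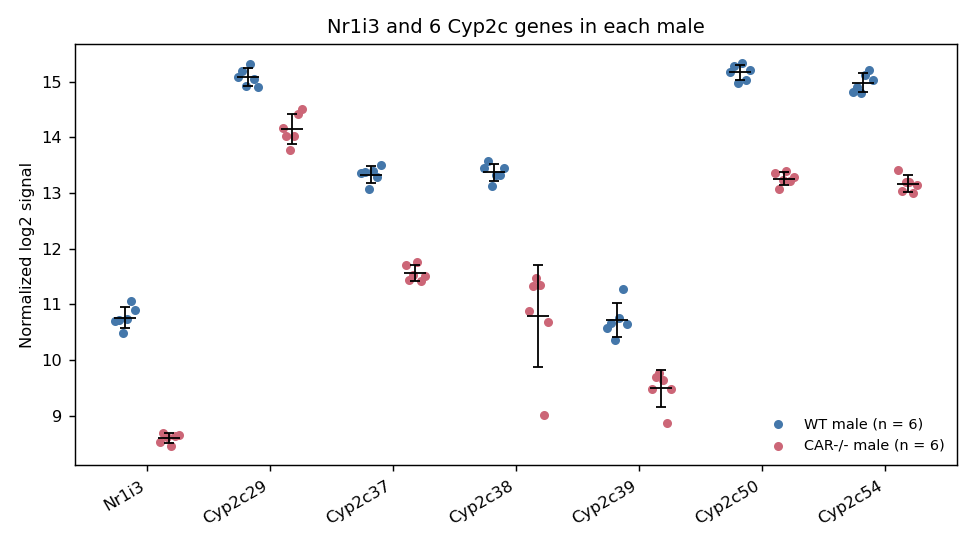
Points are the normalized log2 signals of each WT male (blue, n = 6) and CAR-/- male (red, n = 6), ordered by replicate number from left to right within a group, for Nr1i3 and the Cyp2c probes that fell; lines are the mean and SD. No gene shows overlap between the groups, and CAR-/- male 5 is the lowest mouse for Cyp2c38, at 9.02.

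Beyond these P450 enzymes, few drug-clearance genes passed. Of 38 other phase I enzymes, only Fmo1, in the window, was called (2.63% higher, against 0.609% of all genes), with 5 called without CAR-/- male 5, 3 without WT male 5 and 2 without CAR-/- male 4. The electron donor Por gave 0.29 ± 0.24, Cyp1a2 gave -0.30 ± 0.16 and Cyp1a1 gave 0.03 ± 0.10. Of 41 conjugating enzymes, 2 were called higher (4.88%), the glutathione transferase Gstt3 at 0.98 ± 0.25 and the sulfotransferase Sult1b1 at 0.62 ± 0.13. Gstm1 gave -0.07 ± 0.22. Leaving out 1 male at a time gave 0 (without CAR-/- male 6) to 3 (without CAR-/- male 5) higher conjugating enzymes, and 2 lower without CAR-/- male 5. Gstt3 kept its call in 13 of 24 alternative fits. Of 25 transporters, 2 were called higher (8%), the organic anion carriers Slco1a4 at 0.90 ± 0.23 and Slc22a27 at 0.72 ± 0.18. The latter was not well above background on any WT male array and was at least 1.43-fold higher. Also, 2 were called lower (8%, against 0.415% of all genes), the prostaglandin transporter Slco2a1 at -0.62 ± 0.11 and the efflux pump Abcb1b at -0.60 ± 0.16. Abcc2 gave 0.05 ± 0.08 and Abcc3 gave 0.59 ± 0.34. These transporter counts rested on single mice, with 0 higher without WT male 1, 2, 4 or 6 or CAR-/- male 2, 3 or 4, and 0 lower without CAR-/- male 3 or 4 or WT male 4. Without CAR-/- male 5 both counts were 3, and with slide as a fixed block 0 were higher and 2 lower. The medians of these 3 lists were 0.19, 0.05 and 0.05.

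Several genes of lipid storage were higher in CAR-/- males. Of 43 measured lipid droplet and triglyceride genes, 8 were called higher (18.6%, against 0.609% of all genes) and 0 lower, and 37 of the 43 changes were above 0, with a median of 0.26. Among the 35 that did not pass, Plin2 gave 0.20, Dgat2 0.26, Pnpla2 0.22, Lpl -0.28 and Abhd5 -0.43. The list was drawn up with earlier results of these data known, so its share is no independent evidence of a changed pathway. Cidec, which enlarges lipid droplets by fusing them, ran from 6.34 through 6.94 to 7.65 in WT and from 7.23 through 9.10 to 10.21 in CAR-/- males, a change of 1.91 ± 0.44 (adjusted p = 0.0174, limma) or 3.75-fold. The groups overlapped through CAR-/- males 1 and 5, and the call was lost with the male arrays alone and without CAR-/- male 2, 3 or 4. Mogat1, which makes diacylglycerol, ran from 5.49 through 6.03 to 6.49 and from 6.81 through 7.94 to 8.60, a change of 1.88 ± 0.28 (adjusted p = 0.000264, limma) without overlap.

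The fatty acid carrier Cd36 ran from 7.04 through 7.58 to 8.14 and from 7.72 through 9.19 to 10.47, a change of 1.64 ± 0.36. Cidea, a relative of Cidec, ran from 5.02 through 5.28 to 6.22 and from 5.44 through 7.12 to 8.55, a change of 1.58 ± 0.34. In both, the groups overlapped and CAR-/- males 2 and 3 were highest. Cidea lost its call with the male arrays alone. The droplet coat gene Plin4 rose by 1.29 ± 0.35, the acyltransferase Agpat9 by 1.22 ± 0.33 and Abhd15 by 0.60 ± 0.09. Plin4 and Agpat9 each lost their call in 13 of 24 alternative fits, slide as a fixed block included. Pparg, the nuclear receptor that drives fat storage, ran from 8.53 through 9.16 to 9.75 and from 9.71 through 10.12 to 10.64, a change of 1.02 ± 0.20. Pparg overlapped by a single mouse of each group, WT male 5 and CAR-/- male 5.

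CAR-/- males 2, 3 and 4 were the 3 highest mice for Cidec, Cd36, Agpat9, Pparg and Cfd, while CAR-/- male 5 was the lowest CAR-/- mouse for each. Without CAR-/- male 5, 12 genes of the lipid storage list were called higher, and without CAR-/- male 2, 3 or 4, 5 were. Cfd, the adipsin secreted by adipocytes, ran from 5.49 through 6.96 to 9.79 in WT and from 6.40 through 10.09 to 11.33 in CAR-/- males, a change of 2.51 ± 0.65 (adjusted p = 0.0361, limma) whose call was lost in 11 of 24 alternative fits. Of 9 measured adipocyte markers, 2 were called higher (22.2%, against 0.609% of all genes), Cfd and Cidea, with 1 called when any 1 of WT males 1, 2, 3 and 6 or CAR-/- males 2, 3, 4 and 6 was left out, 3 called without CAR-/- male 5 and 0 with the male arrays alone. Their mean centered level lay between -0.613 and -0.062 in WT and between -0.336 and 0.729 in CAR-/- males. Retn gave 0.49 ± 0.15 and Fabp4 gave 0.12 ± 0.18, neither called, while Adipoq, Lep and Plin1 were not analysed here. The part of adipocyte RNA in these rises was not tested. In whole liver, more cells of a type and more RNA per cell cannot be told apart.

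**Figure D3:**
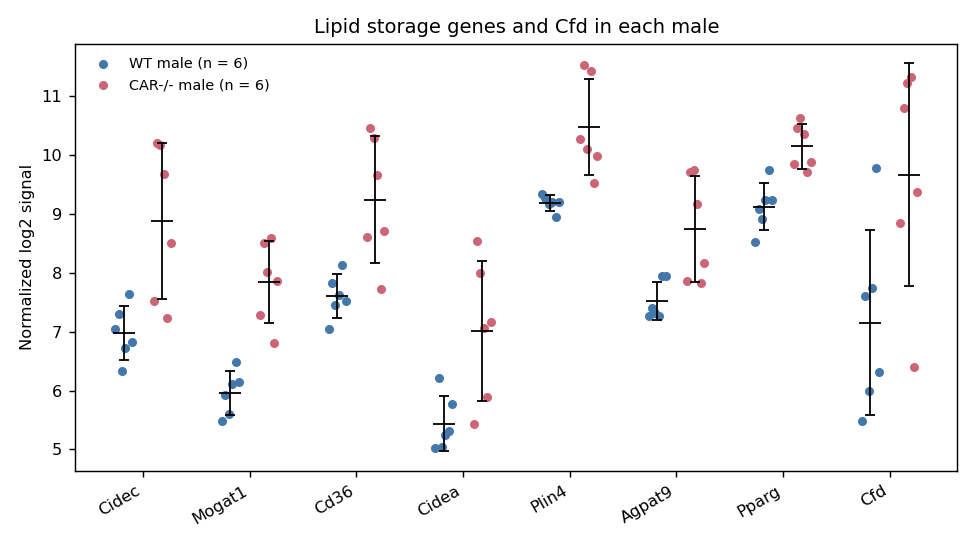
Points are the normalized log2 signals of each WT male (blue, n = 6) and CAR-/- male (red, n = 6), ordered by replicate number from left to right within a group; lines are the mean and SD. CAR-/- males are higher on average for all 8 genes, with CAR-/- males 2, 3 and 4 highest for Cidec and Cfd, and the groups overlap for Cidec, Cd36, Cidea, Agpat9, Pparg and Cfd.

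Some genes of fatty acid synthesis and sterol export were also higher. The lists of both kinds were drawn up with earlier results of these data known, so their shares are no independent evidence. Of 25 fatty acid synthesis genes, 3 were called higher (12%, against 0.609% of all genes). Among them, the mitochondrial dicarboxylate carrier Slc25a10 rose by 0.70 ± 0.19 and Insig2, a brake on SREBP processing, by 0.81 ± 0.16. The synthesis enzymes Fasn and Scd1 gave 0.29 ± 0.39 and 0.20 ± 0.21, and Srebf1 gave 0.55 ± 0.19, none called. Of 32 genes of sterol export and lipoproteins, 3 were called higher (9.38%), falling to 1 without CAR-/- male 2. Abcg5, which pumps sterols into bile with Abcg8, ran from 12.71 through 12.94 to 13.12 and from 13.29 through 13.59 to 14.12, a change of 0.71 ± 0.13. Abcg8 rose by 0.63 ± 0.17 and the lipoprotein gene Apoa4 by 1.44 ± 0.32, and Abca1 gave -0.07 ± 0.10. Abcg8 lost its call in 15 of 24 alternative fits and Slc25a10 in 14 of 24, both including slide as a fixed block, and Apoa4 lost its call without CAR-/- male 2.

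None of 26 cholesterol synthesis and uptake genes and none of 52 PPARa targets was called by limma, although 4 and 20 of them had an unadjusted p below 0.05. Among all 31343 probes, 5454 had one. Sqle, a cholesterol synthesis enzyme, gave -0.61 ± 0.39. The counts of 0 depended on single mice: 3 PPARa targets were called higher without CAR-/- male 5, 2 without WT male 5 and 2 without CAR-/- male 1, and 1 gene of the cholesterol list without WT male 6. In the PPARa list, 47 of 52 changes were above 0, with a median of 0.26. Cpt1a, which admits fatty acids to mitochondria, gave 0.48 ± 0.11 (adjusted p = 0.016, limma) but stayed under 1.5-fold, and Ppara itself gave 0.07 ± 0.11. Cyp4a14, a fatty acid hydroxylase, gave 2.25 ± 0.87 (adjusted p = 0.17, limma), with a spread from 9.61 to 14.08 in WT and from 10.23 to 15.73 in CAR-/- males. Of 20 bile acid genes, only Cyp7b1 was called (5% lower, against 0.415% of all genes), and its call was lost in 16 of 24 alternative fits. The bile acid count was 2 without CAR-/- male 5 and 0 without any 1 of CAR-/- males 1, 2, 3 and 4 and WT males 1, 2, 3, 4 and 6. Cyp7a1, the rate-limiting enzyme of bile acid synthesis, gave -0.25 ± 0.21, Cyp8b1 0.24 ± 0.24 and Nr0b2 0.65 ± 0.39. In glucose metabolism and insulin signaling, 1 of 35 genes was called higher (2.86%, against 0.609% of all genes) and 0 lower, and Pck1 gave -0.20 ± 0.34 and G6pc 0.02 ± 0.31.

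**Figure D4:**
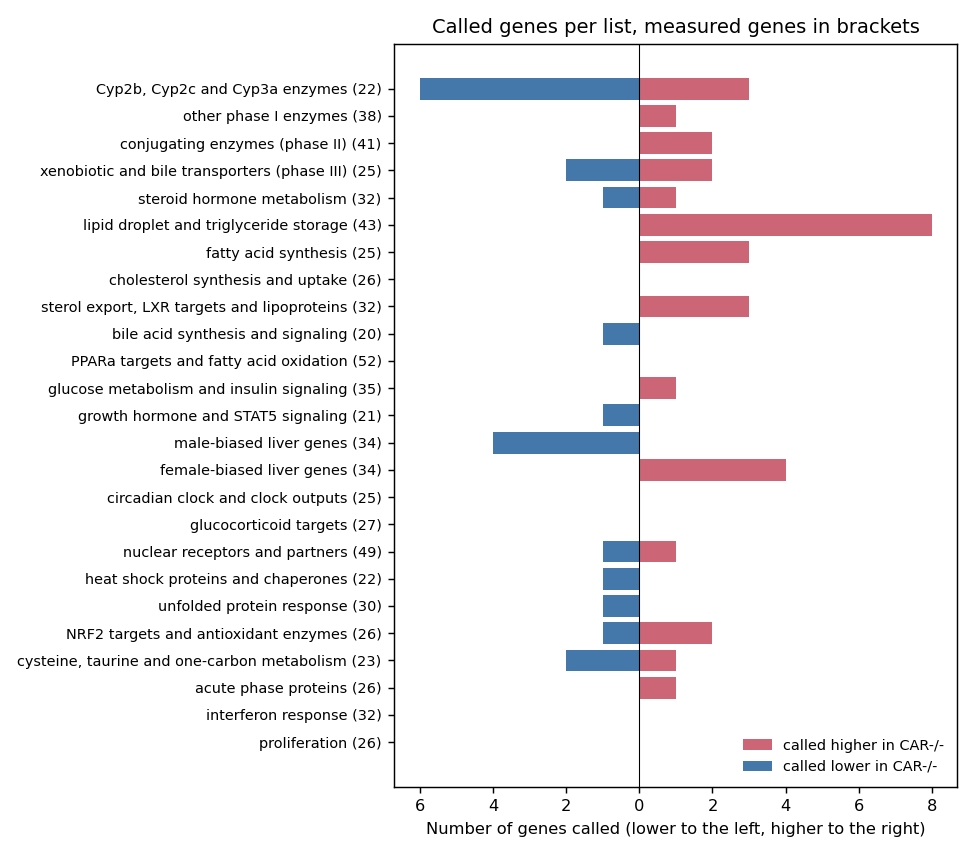
Bars give, for each gene list, how many measured genes (in brackets) were called higher (red, to the right) or lower (blue, to the left) in CAR-/- than in WT males. Lipid droplet genes have the most higher calls, 8 of 43, and the Cyp2b, Cyp2c and Cyp3a genes the most lower calls, 6 of 22.

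Genes known to differ between male and female liver were among those that changed. Growth hormone pulses in males are known to set these programs through STAT5, with Bcl6 as a repressor that is higher in males. Of 34 male-biased genes, 4 were called lower (11.8%, against 0.415% of all genes) and 0 higher. Of 34 female-biased genes, 4 were called higher (11.8%, against 0.609% of all genes) and 0 lower. Both lists were drawn up with earlier results of these data known, so these counts are no independent evidence of direction. Without CAR-/- male 5, 7 male-biased genes were called lower and 9 female-biased genes higher, and without CAR-/- male 3 the numbers were 0 and 3. The male-biased count was also 0 without CAR-/- male 2 or 4 or WT male 1 or 3, 1 without WT male 2 or 4, 2 without WT male 6 and 1 with the male arrays alone. Without CAR-/- male 5, 1 female-biased gene was also called lower.

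Moxd1, a male-biased monooxygenase-like gene, ran from 12.08 through 12.89 to 14.06 in WT and from 5.34 through 9.61 to 13.36 in CAR-/- males, a change of -3.63 ± 0.91 (adjusted p = 0.0284, limma). CAR-/- males 2 and 3 read 5.82 and 5.34, whereas CAR-/- males 5 and 6 lay within the WT range. Bcl6 ran from 12.65 through 13.06 to 13.53 and from 9.27 through 10.66 to 12.78, a change of -2.15 ± 0.54. Enho, which encodes the secreted peptide adropin, ran from 11.68 through 12.46 to 13.11 and from 9.55 through 10.28 to 11.95, a change of -1.87 ± 0.49. In Bcl6 and Enho the overlap came from CAR-/- male 5, at 12.78 and 11.95, and for Enho also from CAR-/- male 1, at 11.79. Of 24 alternative fits, Bcl6 lost its call in 10 and Enho in 11, slide as a fixed block included, and Moxd1 lost its call in 8, the male arrays alone included.

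Cyp7b1, which hydroxylates oxysterols and steroids, changed by -0.99 ± 0.27 (adjusted p = 0.0493, limma), with CAR-/- male 5 at 15.42, above all WT males, and was called in 8 of 24 alternative fits. The complement gene C6 changed by -0.71 ± 0.19 and lost its call in 12 of 24 alternative fits, the male arrays alone and the replicate block included. Of the other male-biased genes, Cyp2d9 gave -0.18 ± 0.12, Cyp4a12a 0.09 ± 0.12 and Hsd3b5 -0.19 ± 0.33. On the female-biased side, Tox rose by 1.19 ± 0.15 without overlap, the water channel gene Aqp4 by 0.78 ± 0.19, and Cd36 and Slc22a27 as above. Aqp4 lost its call in 8 of 24 alternative fits. Cyp2b9 gave 0.34 ± 0.18, and Cyp2a4 gave 0.55 ± 0.13 (adjusted p = 0.019, limma), which is under the fold minimum. Of the other genes of growth hormone signaling, Ghr gave 0.12 ± 0.08 and Igf1 -0.10 ± 0.07. In steroid metabolism, 1 of 32 genes was called in each direction (3.12%, against 0.609% of all genes higher and 0.415% lower), and Hsd17b10 rose by 0.65 ± 0.10. The lower call was Cyp7b1. The lower count was 0 with the male arrays alone, slide as a fixed block or the replicate block, and without most single males. Hsd11b1, which regenerates active glucocorticoid, gave 0.35 ± 0.07 (adjusted p = 0.0099, limma), and Srd5a1 gave -0.24 ± 0.16.

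Several called genes stood outside these programs. Nnt, the mitochondrial transhydrogenase that C57BL/6J mice are known to carry in a deleted form, ran from 11.52 through 11.61 to 11.71 in WT and from 13.04 through 13.28 to 13.43 in CAR-/- males, a change of 1.65 ± 0.08 (adjusted p = 5.85e-13, limma). Its second probe gave 0.36 ± 0.08. Nnt is on chromosome 13. The hepcidin gene Hamp2 rose by 1.62 ± 0.42, Lrtm1 by 1.74 ± 0.33, the phospholipase Plcd3 by 1.66 ± 0.34, the NK cell ligand Raet1e by 1.54 ± 0.36, the peroxidase Gpx6 by 1.39 ± 0.26 and an unnamed chromosome 7 transcript by 1.45 ± 0.25. Hamp2 lost its call in 10 of 24 alternative fits, all of which left out mice, and Raet1e in 6 of 24, the male arrays alone included. Plcd3 lost its call with the male arrays alone. The adhesion receptor Gpr110 fell by 2.27 on the log2 scale, from 8.68 to 9.88 in WT to 5.80 to 8.76 in CAR-/- males. A probe with no gene name read 8.88 in WT male 5, from 5.53 to 5.85 in the other WT males and from 4.33 to 4.81, not well above background, in CAR-/- males. Its call was lost with the male arrays alone and with the normexp background correction.

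Csad, which makes hypotaurine for taurine synthesis, ran from 12.49 through 13.04 to 13.54 in WT and from 11.01 through 11.31 to 12.49 in CAR-/- males, a change of -1.58 ± 0.37. CAR-/- male 5 and the lowest WT mouse both read 12.49, and the call was lost without CAR-/- male 2 or 4 or WT male 6. In the same list of 23 genes of cysteine, taurine and folate metabolism, Bhmt, which remethylates homocysteine, rose by 0.64 ± 0.12 and Mthfd2, a mitochondrial folate enzyme, changed by -0.69 ± 0.10. The Mthfd2 call was lost with the normexp background correction, at -0.39. Cdo1 gave 0.25 ± 0.09. In all, 4.35% of this list was called higher and 8.70% lower, against 0.609% and 0.415% of all genes. Without CAR-/- male 2 or 4 or WT male 6, 1 gene of it was called lower. The heat shock gene Hspa1a changed by -1.39 ± 0.34 and was the only call among 22 chaperones (4.55% lower, against 0.415% of all genes). With no mouse left out, Hsph1 gave -0.40 ± 0.19 and Hsp90aa1 -0.36 ± 0.13 in males. The chaperone count was 0 without WT male 2 or 6 or CAR-/- male 2 or 4, and 2 without WT male 5. Gin1 changed by -1.39 ± 0.33 and lost its call in 7 of 24 alternative fits. Mthfd2 was also the only call among 30 genes of the unfolded protein response (3.33% lower), where Hspa5, Ddit3 and Xbp1 gave -0.20 ± 0.22, -0.20 ± 0.16 and -0.16 ± 0.16. Of 26 antioxidant genes, Nnt and Gpx6 were called higher (7.69%) and Prdx6 lower (3.85%), while Nqo1, Hmox1 and Gclc gave 0.49 ± 0.20, -0.25 ± 0.19 and 0.05 ± 0.19. Of 49 nuclear receptors and partners only Pparg was called higher (2.04%, against 0.609% of all genes). The only lower call was Nr1i3 (2.04%, against 0.415%), the knocked-out gene, so that share is no result about the list. Without CAR-/- male 5, 2 were called lower. The sister receptor Nr1i2 gave 0.18 ± 0.11, Rxra -0.03 ± 0.12 and Hnf4a 0.01 ± 0.11.

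Single transcripts that the array annotation describes as immunoglobulin were called higher; they were named for the size of their change, and no list of immunoglobulin transcripts was counted. A chromosome 12 immunoglobulin transcript ran from 5.35 through 6.15 to 7.39 in WT and from 7.94 through 9.15 to 9.99 in CAR-/- males, a change of 2.65 ± 0.68 (adjusted p = 0.0336, limma). A pair of J558-family heavy chain transcripts rose by 2.31 ± 0.50 and 2.07 ± 0.49, and the kappa constant chain by 1.79 ± 0.49. The first of these transcripts lost its call in 10 of 24 alternative fits and the kappa chain in 14 of 24, slide as a fixed block included, while the J558-family transcripts lost theirs in 0 and 5. None of 10 B and plasma cell markers was called (limma), 6 having an unadjusted p below 0.05 and 1 called without CAR-/- male 5 or with the male arrays alone, and their mean centered level lay between -0.236 and 0.009 in WT and between -0.054 and 0.429 in CAR-/- males. Among all 31343 probes, 5454 had an unadjusted p below 0.05 (limma). Cd79b gave 0.61 ± 0.20 and Cd79a -0.05 ± 0.08. The part of B cell number in the immunoglobulin rises was not tested. None of 14 Kupffer cell, 10 monocyte, 9 neutrophil, 11 T and NK cell, 11 endothelial and 7 bile duct markers was called (limma, unadjusted p below 0.05 for 0, 0, 2, 3, 0 and 2 of them). These counts stand beside the same 5454 of 31343 probes. The lead markers of these cells gave 0.22 ± 0.18 for Clec4f, 0.37 ± 0.22 for Vsig4, -0.03 ± 0.22 for Lyz2, -0.65 ± 0.64 for S100a9, 0.29 ± 0.19 for Cd3d, -0.04 ± 0.08 for Pecam1 and -0.29 ± 0.22 for Krt19. Rgs5, in the window, was the only call among 12 stellate cell and fibroblast markers (8.33% higher, against 0.609% of all genes), and Col1a1 gave -0.53 ± 0.26.

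Apcs was the only call among 26 acute phase proteins (3.85% higher, against 0.609% of all genes). Saa1 and Saa2 gave -1.26 ± 0.90 and -1.19 ± 0.84, with a range of Saa1 from 12.58 to 17.87 over the WT males. No call was made by limma among 32 interferon response genes, 26 proliferation genes, 25 clock genes and 27 glucocorticoid targets, where 4, 3, 2 and 4 had an unadjusted p below 0.05. Among all 31343 probes, 5454 had one. Without WT male 4, 1 clock gene was called higher. Examples are Isg15 at 0.19 ± 0.15, Ifit1 at 0.29 ± 0.21, Irf7 at 0.32 ± 0.14, Mki67 at -0.01 ± 0.30, Ccnb1 at -0.34 ± 0.14, Arntl at 0.10 ± 0.13, Clock at 0.06 ± 0.10, Nr1d1 at -0.19 ± 0.14, Fkbp5 at 0.24 ± 0.23, Tsc22d3 at 0.40 ± 0.21 and Tat at -0.16 ± 0.17.

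The changes in males were set against those of the 12 females in the same fit, with the difference itself tested. Outside the window, 104 of 122 higher and 65 of 72 lower calls had the same sign in females. Of these calls, 23 and 13 were also made in females. In the window, 13 of 13 and 18 of 20 had the same sign, and 11 and 16 were also called. The share of all genes with the same sign was not counted. Over all genes, 0.478% had a difference between the sexes with an adjusted p below 0.05 (limma). Of the genes called in males outside the window, 6 of 122 higher and 8 of 72 lower did. These genes were picked by their male change, which is itself part of the difference. Their counts therefore cannot be weighed against the share of all genes. Nr1i3 fell more in females, with a difference of -1.17 ± 0.22 at its brighter probe (adjusted p = 0.016, limma). Cyp2c54 and Cyp2c50 also fell more in females, at -3.66 and -3.28, with differences of -1.85 ± 0.31 (adjusted p = 0.00937, limma) and -1.37 ± 0.26 (adjusted p = 0.0199, limma). Cyp2c38 fell less in females, at -0.66, with a difference of 1.93 ± 0.36 (adjusted p = 0.016, limma).

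Bcl6 fell in males and gave 1.30 in females, a difference of 3.45 ± 0.77 (adjusted p = 0.0467, limma). C6 and Mthfd2, lower in CAR-/- males, gave 0.77 and 0.38 in females, with differences of 1.48 ± 0.27 (adjusted p = 0.0157, limma) and 1.08 ± 0.14 (adjusted p = 0.000892, limma). Slc35f1, not well above background on any CAR-/- male array, was at least 1.59-fold lower in CAR-/- males, and its call was lost with the normexp background correction. Abcg5, Tox, Gpx6 and the predicted gene Gm2568, higher in CAR-/- males, gave -0.25, 0.05, -0.39 and -0.64 in females. Their differences were -0.96 ± 0.18, -1.14 ± 0.21, -1.78 ± 0.37 and -1.36 ± 0.19. For the lipid genes Cidec, Mogat1 and Cd36 the female changes were -0.08, 0.66 and 0.56, and their differences from males, -1.99, -1.22 and -1.08, did not pass (adjusted p = 0.15, 0.17 and 0.43, limma).

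**Figure D5:**
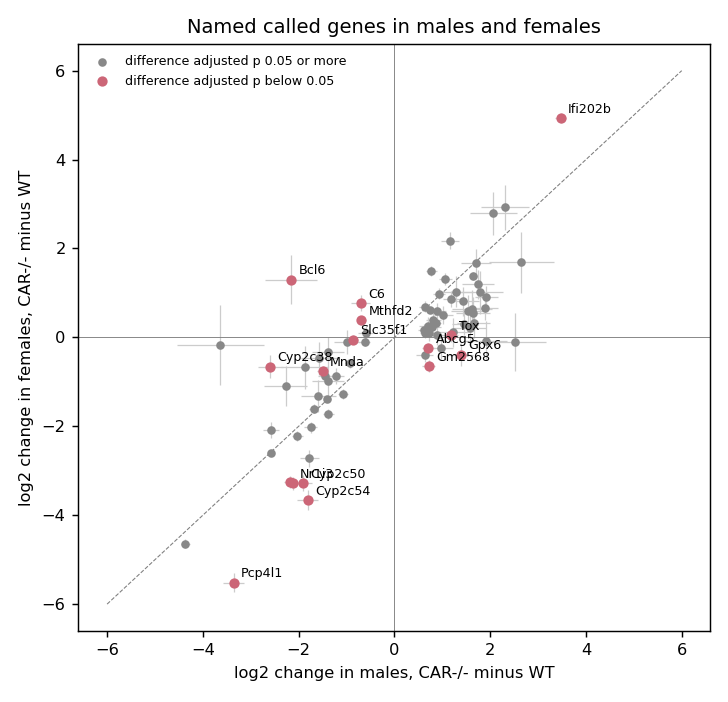
Each point is a named probe called in males, with its log2 change in males on the x axis and in females on the y axis; gray bars are standard errors, the dashed line marks equal change and red points have a difference between the sexes with an adjusted p below 0.05. Gas5, at -4.36, lies near the line, Cyp2c50 and Cyp2c54 lie below it and Bcl6 lies in the opposite quadrant.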

How the data were processed

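Liver RNA of 24 mice was labeled with Cy3 and hybridized to 1-color Agilent arrays, 1 mouse per array. Per the deposited scanner files, signals were extracted with Agilent Feature Extraction 10.10.1.1 and probe positions refer to mm9; the array design number in the file headers differs from that in the study's methods. The authors filtered the median signals, by a rule not given in the sources used here, and deposited log2 values after quantile normalization over the 24 arrays. These values were used as deposited. Within each array they ranked probes as the deposited median intensity did (Spearman correlation at least 0.9999939), and the scanner intensity files also gave the flags for probes well above background and for saturation, of which there were 0. The number of arrays, not read depth, limits the precision.

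A model with 4 groups (genotype by sex) was fitted to all 24 arrays with limma 3.58.1 in R 4.3.3, so that the groups shared 1 estimate of the spread. Moderated tests gave the CAR-/- minus WT change in males and, as an interaction, its difference between the sexes. P-values were adjusted by Benjamini-Hochberg over all 31343 probes, and a call needed an adjusted p below 0.05 and a change above 1.5-fold. Bounds ("at least N-fold") were used where a group was not well above background on any array. In these, the dim group's level on each array was the higher of the probe's own signal and the lowest signal among probes well above background. On simulated arrays of 31343 probes, the fit recovered 99 of 100 changed by 1 log2 unit and 99 of 100 changed by 2. It also called 4 unchanged probes. The simulated noise was drawn independently for each probe and array, with no slide effect and no mouse that stood apart. The simulation therefore does not measure how reliable the calls on the real arrays are.

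The members and gene lists were chosen with earlier results of these data known. Genes named in the text were Nr1i3, the 15 largest rises and 15 largest falls outside the window, the 10 of each within it, called members of each list (up to 6) with its first 3 members, and up to 5 genes in each direction with the largest difference between the sexes. Abhd15, Cyp3a57, Cyp3a59, the 6 Cyp2c genes that did not pass, Plin2, Dgat2, Pnpla2, Lpl, Abhd5 and the further probes of Gas5, Cyp2c38, B4galt3 and Nnt fall outside this rule and were chosen after their values were seen. Of 22170 genes, 15538 had a gene name. Alternatives covered the signal source, normalization, background, filters, slide, replicate block, thresholds, a Student's t-test, the window and leaving out each mouse. A few genes that this rule names are not reported here.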

Additional observations from a re-analysis of the deposited data

Results flagged for a closer look

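In 29 of 350 sets of 6 mice, 1 mouse stood far from the other 5 of its group, where chance alone flags about 1 in 20 such sets. WT male 5 accounted for 8 of them, with log2 signals of 4.92 for Slc22a27, 15.76 for Pck1, 12.15 for Kdr, 11.77 for Cyp1a2, 10.16 for Cd3e, 11.95 for Hsph1, 8.58 for Gin1 and 8.88 for a probe with no gene name. CAR-/- male 5 accounted for 7, with 7.61 for an unnamed chromosome 7 transcript, 15.24 for Hsd17b10, 17.77 for Bhmt, 16.06 for G6pc, 8.86 for Cyp2c39, 12.49 for Csad and 9.02 for Cyp2c38. CAR-/- male 6 accounted for 5, with 12.07 for Cd5l, 9.23 for Ctrb1, 6.28 for Lyz2, 6.83 for Cela2a and 5.37 for Mnda. CAR-/- male 3 read 8.03 for Nr0b2, 13.91 for Ppara and 6.01 for Cenpl. CAR-/- male 1 read 16.04 for Saa2 and 16.2 for Saa1, and CAR-/- male 4 read 11.59 for Hsph1. WT male 2 read 5.95 for Epcam, WT male 3 read 6.08 for Nr1d1 and WT male 6 read 10.82 for Tnni2.

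The change in females minus that in males, tested as an interaction with limma, passed an adjusted p of 0.05 for 16 named probes. It was above 0 for Bcl6 at 3.45, Cyp2c38 at 1.93, C6 at 1.48, Ifi202b at 1.46, Mthfd2 at 1.08, Slc35f1 at 0.81 and Mnda at 0.73. It was below 0 for Pcp4l1 at -2.16, Cyp2c54 at -1.85, Gpx6 at -1.78, Cyp2c50 at -1.37, Gm2568 at -1.36, Nr1i3 at -1.17 and -1.08, Tox at -1.14 and Abcg5 at -0.96.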

How the results depend on the processing

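Counts are given as higher and lower calls outside the window, against 122 and 72. Leaving out 1 male at a time gave 68 (without CAR-/- male 2) to 205 (without CAR-/- male 5) higher and 37 (without CAR-/- male 2 or 3) to 145 (without CAR-/- male 5) lower. CAR-/- male 4 (80 and 39) and WT male 1 (42 lower) also moved a count by over 1.5 times. In the window, the ranges were 12 to 14 higher and 19 to 22 lower. Calls outside the window with a difference between the sexes, 14 in all, ranged from 8 (without WT male 3) to 33 (without CAR-/- male 5). A fold above 2 gave 43 and 17, with 6 higher in the window and 6 sex differences, and no fold minimum gave 483 and 265, with 23 and 30. The processed signal scaled to the 75th percentile gave 188 and 128, with 21 higher in the window. A Student's t-test between the male groups gave 199 and 134 unadjusted and 53 and 24 after Benjamini-Hochberg. The paper names this test for a single pair of groups and an analysis of variance for more. With all of chromosome 1 as the window, 25 were higher and 29 lower in it, and 110 and 63 were called outside it. Chosen after seeing the data, leaving out both males numbered 5 gave 218 and 167, with 63 sex differences, and leaving out both numbered 6 gave 9 sex differences. The cause of these shifts was not tested, except where fewer mice or another threshold define the alternative.

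Same-numbered mice did not deviate together, with correlations from -0.16 to 0.142 over 6 pairs, so no pairing by number was seen. Such correlations cannot exclude a shared litter or handling batch. With the replicate block, 115 genes were called higher and 68 lower outside the window, 12 and 20 within it, and 12 differed between the sexes. With slide as a fixed block, 107 and 63 were called outside the window, and 12 of the 78 named called probes lost their call. Across the alternatives of signal source, normalization, filter, arrays, slide and replicate block, 44 of the 78 kept their call wherever tested and 0 reversed; fold minimum, test and window were varied for counts only.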
